A study of Homo sapiens with 4 samples.

Results

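The 45 genes described here encode the Wnt ligands, their receptors and their secreted antagonists, a fixed family list taken from 20163 protein-coding genes. They comprised the 19 WNT ligands, WLS, which carries WNT proteins to the cell surface, 15 receptors and co-receptors (FZD1 to FZD10, LRP5, LRP6, ROR1, ROR2 and RYK) and 10 antagonists (SFRP1, SFRP2, SFRP4, SFRP5, FRZB, DKK1 to DKK4 and WIF1). DNA methylation of these genes was compared by reduced representation bisulfite sequencing (RRBS) among 4 clones of the human ovarian cancer cell line SKOV3, sequenced as 1 library each. ShC-S carried a control shRNA and had a mesenchymal-like (M) phenotype, and ShLy75-S carried an shRNA against the receptor gene LY75 and had an epithelial-like (E) phenotype. In Ly75-KO-S, also of E phenotype, LY75 was inactivated by CRISPR. Ly75-OV-S, of M phenotype, was made from the LY75 knockdown cells by expressing an LY75 that the shRNA does not target. Each library stands for 1 clone, so a difference between clones and a difference between conditions cannot be told apart.

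Wnt proteins are lipid-modified signals that leave the producing cell with the help of WLS and bind Frizzled (FZD) receptors on their target cell. Together with the co-receptors LRP5 and LRP6 this stabilizes β-catenin, whereas ROR1, ROR2 and RYK serve routes that do not need it. SFRP proteins, FRZB and WIF1 bind the ligands outside the cell and Dickkopf (DKK) proteins act on the co-receptors, and promoter methylation of several of these antagonists is well known in carcinomas.

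RRBS cuts DNA with MspI at CCGG and reads the ends of short fragments after bisulfite treatment, so it samples CpG-rich DNA. The values are differences in percent methylation (points) between libraries over tiles of 1000 bp, deposited for the comparison of ShC-S with ShLy75-S, for that of Ly75-OV-S with Ly75-KO-S, and for a mix that sets both M clones against both E clones. The deposited lists hold the tiles that differed by at least 25 points at a q-value, the adjusted p-value between libraries, under 0.01. Read numbers and the methylation of each library were not used here, so it is unknown how deeply a tile was read, and a tile that is not listed may be unchanged or unread. A positive difference stands for higher methylation in the E clone (hypermethylated, as against hypomethylated). For Ly75-OV-S with Ly75-KO-S this sign rests on the grouping of the mix, and the order in which the deposited names put these clones would reverse every sign of that comparison. The study groups the mix as M against E, and reversed signs would conflict with that grouping. The mix shares its libraries with both single comparisons, so its values are given side by side and are no further evidence.

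To show DNA that the assay can sample at these genes, the CpG-richest MspI fragments of 40 to 220 bp outside untranslated regions are given for 7 promoter tiles. These are that of WNT3 and others with large differences or with a difference in both single comparisons. Not every such tile is shown, and that of FZD9 was left out. All fragments are on the plus strand of GRCh37 (hg19), with each CpG in capitals, and each begins and ends inside an MspI site. Reads of 50 bp from the fragment ends leave the middle of the longer fragments unread. The fragments hold 3 to 24 CpGs in 63 to 210 bp, and the deposited differences do not say which CpGs of a tile were read.
WNT3, chr17:44896631-44896693: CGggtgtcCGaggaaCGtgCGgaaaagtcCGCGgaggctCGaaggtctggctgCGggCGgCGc
WNT5A, chr3:55515652-55515861: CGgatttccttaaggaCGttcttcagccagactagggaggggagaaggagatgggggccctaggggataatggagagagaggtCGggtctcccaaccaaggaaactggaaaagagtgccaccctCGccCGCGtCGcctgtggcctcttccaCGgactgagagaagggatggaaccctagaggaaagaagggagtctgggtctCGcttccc
WNT7B, chr22:46367361-46367544: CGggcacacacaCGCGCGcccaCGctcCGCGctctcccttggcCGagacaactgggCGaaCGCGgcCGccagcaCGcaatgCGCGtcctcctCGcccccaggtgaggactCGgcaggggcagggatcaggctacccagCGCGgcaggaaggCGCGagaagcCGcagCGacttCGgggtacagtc
SFRP5, chr10:99531820-99531928: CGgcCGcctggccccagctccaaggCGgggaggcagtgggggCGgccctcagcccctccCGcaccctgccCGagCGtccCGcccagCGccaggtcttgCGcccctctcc
SFRP2, chr4:154712107-154712230: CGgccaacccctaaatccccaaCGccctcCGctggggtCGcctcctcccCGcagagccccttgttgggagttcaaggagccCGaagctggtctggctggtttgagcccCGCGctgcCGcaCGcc
LRP5, chr11:68082224-68082353: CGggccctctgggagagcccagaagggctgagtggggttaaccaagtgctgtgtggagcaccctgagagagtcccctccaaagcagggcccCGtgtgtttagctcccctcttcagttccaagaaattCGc
WIF1, chr12:65514887-65514963: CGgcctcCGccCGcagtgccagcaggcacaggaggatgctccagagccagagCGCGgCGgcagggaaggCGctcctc
The WNT3, WNT5A, WNT7B and LRP5 fragments lie inside the gene spans but outside coding exons. In this order they lie 604 bp upstream, 335 bp upstream, 1143 bp downstream and 2229 bp downstream of the nearest transcription start site (TSS) of the gene. That of SFRP2 lies 1933 bp upstream of the gene, that of SFRP5 lies just upstream of its gene, and that of WIF1 lies in the coding exon 160 bp downstream of the TSS. WNT3, WNT5A, WNT7B, SFRP5, SFRP2 and WIF1 are transcribed from the minus strand. LRP5 is transcribed from the plus strand.

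The spans of the 45 genes, extended by 5 kb on each side, held 3463 tiles, of which MspI fragments could reach 711 with reads of 50 bp. In ShC-S with ShLy75-S, 125 tiles at the Wnt genes were listed, 86 hypermethylated and 39 hypomethylated in the E clone. In Ly75-OV-S with Ly75-KO-S 64 tiles were listed, 42 hypermethylated and 22 hypomethylated, and in the mix 53, of which 37 were hypermethylated. The hypermethylated share was thus 68.8% (95% Wilson interval 60.2% to 76.3%), 65.6% (53.4% to 76.1%) and 69.8% (56.5% to 80.5%) in this order. Over all listed tiles of the genome it was 64.7%, 54.7% and 65.0%, inside the interval of the Wnt genes each time. These intervals cover counting error only, and neighbouring tiles are not independent. Altogether 180 tiles at the Wnt genes were listed in at least 1 comparison, at 39 of the 45 genes (86.7%, interval 73.8% to 93.7%), beside 70.5% of all protein-coding genes. Gene length and CpG content were not matched in this. WNT16, FZD1, FZD3, FZD6, LRP6 and DKK4 had no listed tile.

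**Figure D1:**
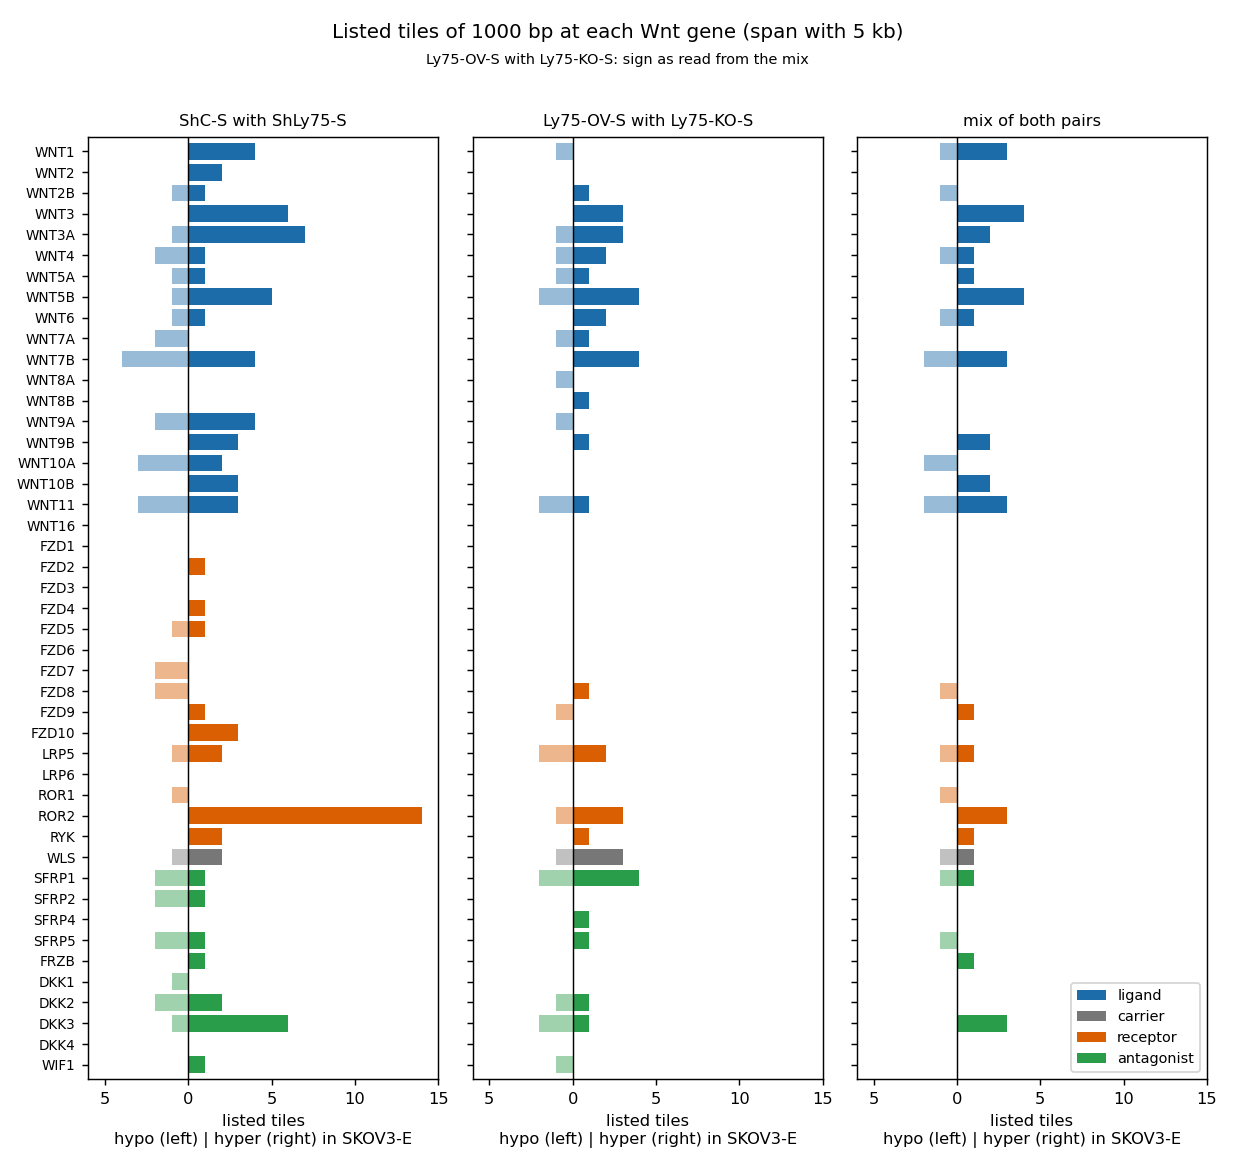
Number of listed tiles at each of the 45 Wnt genes (y axis) in the 3 comparisons (panels), with hypermethylated tiles to the right of 0 in full colour, hypomethylated tiles to the left in pale colour, and colours for the roles. ROR2 has the longest bar, with 14 hypermethylated tiles in ShC-S with ShLy75-S, a tile between WNT1 and WNT10B is counted at both genes, and the direction in the middle panel rests on the grouping of the mix.

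Of the 711 reachable tiles at the Wnt genes, 116 (16.3%, interval 13.8% to 19.2%) were listed in ShC-S with ShLy75-S, beside 12.4% of the reachable tiles of the genome and 11.6% of those at protein-coding genes. In Ly75-OV-S with Ly75-KO-S the share was 7.88% (6.12% to 10.1%) beside 6.63% in the genome, and in the mix 6.89% (5.25% to 8.99%) beside 5.14%. By role, ligands had 20.4% of their 313 reachable tiles listed in ShC-S with ShLy75-S, antagonists 23.1% of 91, WLS 13.6% of 22 and receptors 9.82% of 285. The shares in Ly75-OV-S with Ly75-KO-S were 9.90% for ligands, 13.2% for antagonists, 18.2% for WLS (4 of 22 tiles) and 3.16% for receptors, so the receptors were lowest there too. The mix gave 10.2% for ligands, 7.69% for antagonists, 9.09% for WLS and 2.81% for receptors. The interval of the ligands (16.4% to 25.3%) and that of the receptors (6.88% to 13.8%) did not overlap in ShC-S with ShLy75-S. No test of these differences was made, since tiles of 1 gene share their library and their neighbourhood. Among the receptors, ROR2 alone held 14 of the 32 listed tiles, and without it 7.54% of the reachable receptor tiles were listed. The interval of all receptors holds the 12.4% of the genome, and that without ROR2 (4.62% to 12.1%) does not. Both intervals hold the 11.6% of all protein-coding genes. In the other single comparison the interval of the receptors (1.67% to 5.89%) lies below the 6.63% of the genome. The FZD receptors had 10 of 58 reachable tiles listed in ShC-S with ShLy75-S (17.2%, interval 9.64% to 28.9%) and 3.45% both in Ly75-OV-S with Ly75-KO-S and in the mix.

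**Figure D2:**
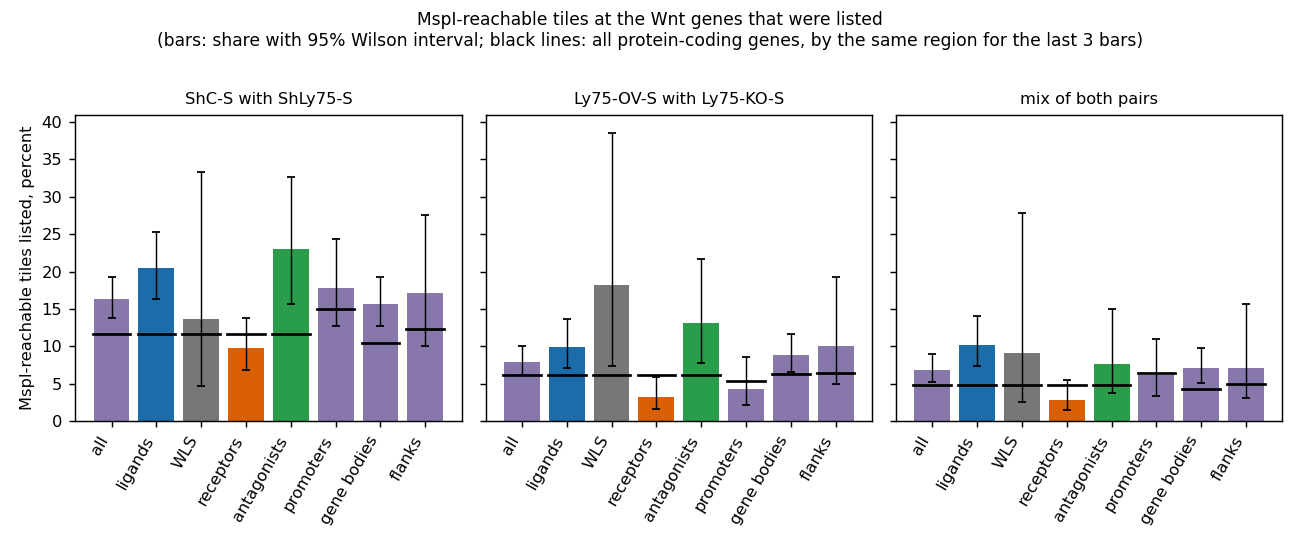
Percent of MspI-reachable tiles that were listed (y axis) for all Wnt genes, for each role and for promoters, gene bodies and flanks of the Wnt genes, in the 3 comparisons (panels). Error bars are 95% Wilson intervals, which cover counting error only, and black lines give the same share at all protein-coding genes. In ShC-S with ShLy75-S the bars of ligands (20.4%) and antagonists (23.1%) lie above the line at 11.6% and that of the receptors (9.82%) below it.

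Promoters, taken as 2 kb on either side of a TSS, were listed at 23 of the 45 Wnt genes in ShC-S with ShLy75-S (51.1%, interval 37% to 65.0%), beside 30.1% of all protein-coding genes. In Ly75-OV-S with Ly75-KO-S 6 Wnt genes had a listed promoter tile (13.3%) beside 14.2% of all genes, and in the mix 8 did (17.8%) beside 15.2%. The promoters of the Wnt genes were CpG-rich, with a median of 53 CpGs in their reachable tiles against 36 at all protein-coding genes. Whether CpG number accounts for the difference from the background was not tested. Per reachable promoter tile, 17.8% were listed at the Wnt genes in ShC-S with ShLy75-S against 14.96% at all protein-coding genes, and the interval (12.7% to 24.4%) holds the latter value. By role, 10 of 19 ligands, 5 of 15 receptors, 7 of 10 antagonists and WLS had a listed promoter tile in this comparison. For Ly75-OV-S with Ly75-KO-S they were 4 ligands, 2 antagonists and no receptor.

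The direction was also counted by position in the gene. In ShC-S with ShLy75-S, 19 of the 33 listed promoter tiles were hypermethylated (57.6%), 10 of the 21 exon tiles (47.6%), 46 of the 56 intron tiles (82.1%, interval 70.2% to 90.0%) and 11 of the 15 tiles in the flanks. At all protein-coding genes the hypermethylated share was 55.6% in promoters, 63.7% in exons and 64.3% in introns. Without ROR2, whose listed tiles were all intronic, 32 of 42 intron tiles (76.2%, 61.5% to 86.5%) and 72 of all 111 tiles at the Wnt genes (64.9%) were hypermethylated, and the former interval holds the intron share of all genes. The listed tiles of Ly75-OV-S with Ly75-KO-S were hypermethylated in 4 of 8 cases in promoters, 8 of 10 in exons and 26 of 38 in introns, beside 53.3%, 55.8% and 55.8% at all protein-coding genes. With the sign turned they would be 4 of 8, 2 of 10 and 12 of 38. The direction at promoters was also counted by role. In ShC-S with ShLy75-S, 12 of the 16 listed ligand promoter tiles were hypermethylated (75.0%, 50.5% to 89.8%), while 3 of the 10 at antagonists were (30.0%, 10.8% to 60.3%). Both intervals hold the 55.6% of all promoters, and the difference was not tested. At receptors 3 of 6 were hypermethylated. Ligand promoters had 3 of 6 and antagonist promoters 1 of 2 hypermethylated tiles in Ly75-OV-S with Ly75-KO-S, too few to compare.
By CpG number, tiles with at least 40 CpGs at the Wnt genes were listed in 20.1% of reachable tiles in ShC-S with ShLy75-S and in 2.52% in Ly75-OV-S with Ly75-KO-S. Tiles with under 20 CpGs gave 14.7% and 10.6%. At all protein-coding genes these shares were 16.5% and 3.75% for CpG-rich tiles and 10.2% and 6.76% for CpG-poor tiles.

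**Figure D3:**
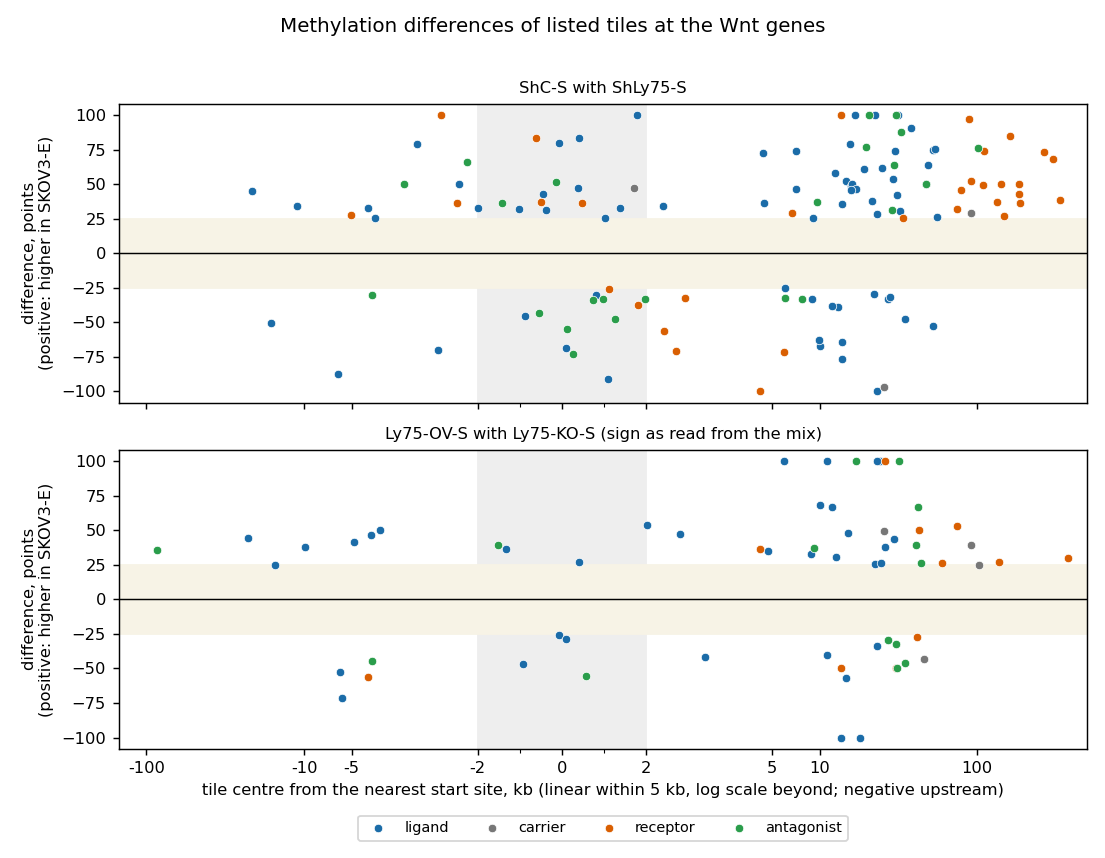
Difference in methylation of each listed tile at the Wnt genes (y axis, points, positive for higher in the E clone) against the distance of its centre from the nearest TSS of the gene (x axis, kb, linear within 5 kb and logarithmic beyond, negative upstream), coloured by role. The upper panel shows ShC-S with ShLy75-S and the lower panel Ly75-OV-S with Ly75-KO-S, whose sign rests on the mix. The beige band marks differences under 25 points, which are not listed, and the grey band the 2 kb either side of a TSS, where antagonists lie mostly below 0 in the upper panel.

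WNT3, the ligand that the study selected, lies on chromosome 17 from 44839872 to 44910520 on the minus strand. Its 8 listed tiles were hypermethylated in each comparison that listed them. With the sign of Ly75-OV-S with Ly75-KO-S turned, the 3 WNT3 tiles listed there would be hypomethylated in that comparison. The tile with the canonical TSS (chr17:44896001-44897000), which holds the fragment shown above and 89 CpGs, differed by 43.2 points in ShC-S with ShLy75-S (q = 5.36e-204) and was listed in neither of the other comparisons. Upstream of it, another promoter tile differed by 50.0 points in ShC-S with ShLy75-S and intronic tiles next to that by 78.9 and 25.3 points. Farther into the gene, the intronic tile from 44873001 to 44874000, with its centre 22558 bp downstream of a TSS, differed by 100 points in ShC-S with ShLy75-S and by 25.9 points in Ly75-OV-S with Ly75-KO-S. The mix gave 68.4 points. Thus the difference at the WNT3 promoter was listed for the knockdown clone alone, and the tile listed for both E clones lay inside the gene.
The annotated gene spans of WNT3 and WNT9B lie 46 bp apart. Over the WNT3/WNT9B pair all 9 listed tiles were hypermethylated in ShC-S with ShLy75-S, all 4 in Ly75-OV-S with Ly75-KO-S and all 6 in the mix. The other neighbouring ligand genes were counted in the same way. WNT1/WNT10B had 6 hypermethylated tiles of 6 in ShC-S with ShLy75-S but 1 hypomethylated tile in Ly75-OV-S with Ly75-KO-S. WNT3A/WNT9A had 11 of 14 and 3 of 5 hypermethylated, and WNT6/WNT10A had 3 of 7 and 2 of 2. With the sign of Ly75-OV-S with Ly75-KO-S turned, the 4 tiles of WNT3/WNT9B there would be hypomethylated and that of WNT1/WNT10B hypermethylated. The pairs are therefore not ranked by uniformity.

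WNT7B, a ligand of epithelia, carried opposite differences at neighbouring start sites. It lies on chromosome 22 from 46316246 to 46373042 on the minus strand. The tile from 46367001 to 46368000, with 97 CpGs and the fragment shown above, differed by -90.6 points in ShC-S with ShLy75-S, and the next tile, which holds a TSS, by -68.8 points (q = 6.75e-139). The tile from 46371001 to 46372000, near TSSs farther upstream and with 77 CpGs, differed by 83.6 points (q = 1.48e-150). That last tile was also listed in Ly75-OV-S with Ly75-KO-S, with 27.1 points (q = 1.64e-21), and the mix gave 69.1 points. It is among 17 listed tiles at the Wnt genes that hold no CpG counted as reachable here. In the introns and exons of WNT7B, Ly75-OV-S with Ly75-KO-S listed 3 tiles, each at 100 points, and ShC-S with ShLy75-S listed none of these. The tiles that begin at 46344001 and 46345001 are adjacent, with 2 and 1 reachable CpGs and the same q-value, so they may not be separate differences.
WNT5A, a ligand of the β-catenin-independent routes, was the other gene in which both single comparisons listed the same promoter tile. The tile from 55515001 to 55516000 on chromosome 3, with 49 CpGs and its centre 79 bp upstream of a TSS, differed by 80 points in ShC-S with ShLy75-S (q = 4.04e-84) but by -25.4 points in Ly75-OV-S with Ly75-KO-S (q = 7.47e-14). In the mix it differed by 33.7 points. The pair of promoter tiles shared by the single comparisons thus had the same direction at WNT7B and opposite directions at WNT5A. With the sign of Ly75-OV-S with Ly75-KO-S turned, the directions would be opposite at WNT7B and the same at WNT5A.

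WNT10B, a ligand of the β-catenin route, had the largest promoter difference of the ligands in ShC-S with ShLy75-S, 100 points in a tile 1781 bp downstream of a TSS, which also holds no CpG counted as reachable. The mix gave 28.6 points there. Its upstream tile, shared with WNT1, differed by 32.9 points and by 29.3 points in the mix. WNT1 itself, a ligand of the same route, was hypermethylated in ShC-S with ShLy75-S over 3 consecutive promoter tiles from its TSS, by 47.4, 32.8 and 34.4 points. The tile upstream of them was listed in the mix alone, at -26.8 points. The following tile, in its exons, differed by -41.4 points in Ly75-OV-S with Ly75-KO-S, while the mix gave 33.3 points and ShC-S with ShLy75-S did not list it. The promoter tiles of WNT5B differed by 36.6, -28.3 and 54.1 points in Ly75-OV-S with Ly75-KO-S and by 25.8 points in another tile in ShC-S with ShLy75-S. WNT5B, related to WNT5A, had 12 listed tiles in all, 4 of which also lie in FBXL14. WNT7A, related to WNT7B, had a promoter tile with 49 CpGs, centred at -932 bp from the TSS, that Ly75-OV-S with Ly75-KO-S alone listed, at -47.1 points.

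WNT3A, a ligand of the β-catenin route, had 11 listed tiles. Its promoter tile differed by -29.9 points in ShC-S with ShLy75-S, whereas exonic tiles near its 3′ end differed by 75.0 and 75.5 points, the latter with 74.8 points in the mix. An intronic WNT3A tile differed by 52.2 points in ShC-S with ShLy75-S and by -57.1 points in Ly75-OV-S with Ly75-KO-S. WNT4, a ligand of the female reproductive tract, had another intronic tile of this kind, at -67.3 and 68.1 points. The WNT4 tile ranks highest by the smaller absolute difference among the 13 tiles listed in both single comparisons. It holds only 1 reachable CpG, and the WNT3A tile 2. With the sign of Ly75-OV-S with Ly75-KO-S turned, the tiles of WNT3A and WNT4 would each have the same direction in both. WNT6 had 100 and 66.7 points in gene body tiles of Ly75-OV-S with Ly75-KO-S and -64.0 points in its last exon in ShC-S with ShLy75-S, in a tile with 87 CpGs. WNT11 had 9 listed tiles. One with 100 CpGs, inside its gene span but upstream of the TSS (centred at -2954 bp), differed by -70.0 points in ShC-S with ShLy75-S. WNT2 (31.7 points) and WNT6 (32.1 points) were hypermethylated and WNT9A (-45.0 points) hypomethylated in a promoter tile in ShC-S with ShLy75-S. WNT2B and WNT10A had listed tiles outside promoters in ShC-S with ShLy75-S, and WNT8A and WNT8B 1 tile each in Ly75-OV-S with Ly75-KO-S.
WLS, on chromosome 1, was listed in its promoter in ShC-S with ShLy75-S by 47.1 points (q = 2.07e-31). Both of its tiles shared by the single comparisons were intronic. One of them was hypermethylated throughout, with 29.3, 39.4 and 34.0 points in the mix, and the other differed by -96.8 points in ShC-S with ShLy75-S but by 49.7 points in Ly75-OV-S with Ly75-KO-S.

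**Figure D4:**
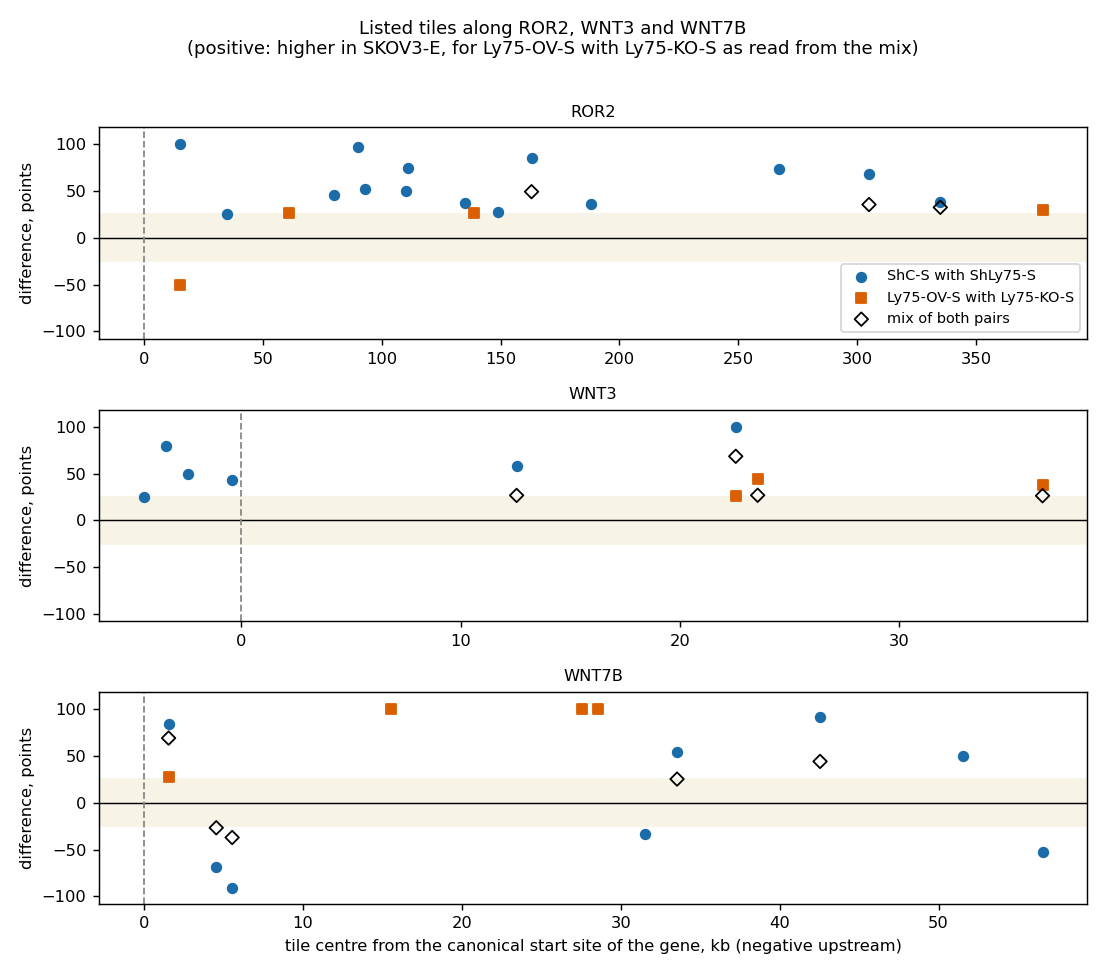
Difference in methylation (y axis, points, positive for higher in the E clone) of each listed tile along ROR2, WNT3 and WNT7B against the distance of the tile from the canonical TSS (x axis, kb, negative upstream). Circles show ShC-S with ShLy75-S, squares Ly75-OV-S with Ly75-KO-S, whose sign rests on the mix, and open diamonds the mix, the beige band marks differences under 25 points, and dashed lines mark the TSS. ROR2 and WNT3 have circles above 0 alone, while WNT7B has 4 above and 4 below.

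Among the receptors, ROR2, a receptor tyrosine kinase that binds WNT5A, had the most listed tiles of all members, 17. It spans 398 tiles with its flanks, from 94325373 to 94712510 on chromosome 9, and 86 of them were reachable. All 14 ROR2 tiles listed in ShC-S with ShLy75-S were intronic and hypermethylated, by 25.7 to 100 points with a median of 51.2 points. Of these, 13 were among its reachable tiles (15.1%, interval 9.05% to 24.2%), beside the 12.4% of the genome, which the interval holds. No promoter tile of ROR2 was listed. The ROR2 tiles of Ly75-OV-S with Ly75-KO-S were hypermethylated in 3 cases, by 26.1 to 29.8 points. The fourth, 13662 bp downstream of the TSS, differed by -50.0 points there and by 100 points in ShC-S with ShLy75-S.
ROR1, the paralog of ROR2, had 1 promoter tile at -37.1 points in ShC-S with ShLy75-S and 1 intronic tile listed in the mix alone, although its span holds more tiles (419). Of these, 18 were reachable.

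The FZD receptors had 12 listed tiles in ShC-S with ShLy75-S, 7 of them hypermethylated, and 2 in Ly75-OV-S with Ly75-KO-S. FZD9 had the largest promoter difference of the receptors, 83.7 points in ShC-S with ShLy75-S (q = 4.30e-22) and 44.4 points in the mix. A flanking FZD9 tile differed by -56.3 points in Ly75-OV-S with Ly75-KO-S. FZD10 was hypermethylated in ShC-S with ShLy75-S around its TSS, by 36.8 points upstream of the TSS (98 CpGs) and 36.4 points over it (114 CpGs). In FZD8, by contrast, a tile of the coding exon with 88 CpGs differed by -70.7 points in ShC-S with ShLy75-S and by -57.8 points in the mix. Its 3′ flank differed by -100 points in ShC-S with ShLy75-S but by 36.2 points in Ly75-OV-S with Ly75-KO-S. FZD5 differed by -25.5 points in its promoter tile and by 100 points in an upstream flank tile in ShC-S with ShLy75-S, and FZD7 by -32.6 and -71.7 points outside its promoter. FZD2 and FZD4 had 1 hypermethylated flank tile each.
The co-receptor LRP5 had a promoter tile at -56.2 points in ShC-S with ShLy75-S. Its exonic tile from 68154001 to 68155000 on chromosome 11 was hypermethylated in all of the comparisons, by 32.5 points in ShC-S with ShLy75-S, 53.0 points in Ly75-OV-S with Ly75-KO-S and, in the mix, 41.6 points. Intronic LRP5 tiles differed by -50.0, -26.9 and 50.0 points in Ly75-OV-S with Ly75-KO-S, and another by -36.6 points in the mix alone. The related LRP6 had 28 reachable tiles and none listed. RYK had 3 listed tiles, all intronic and hypermethylated, including 100 points in Ly75-OV-S with Ly75-KO-S.

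Of the antagonists, SFRP5, which binds WNT ligands, was hypomethylated at its TSS in ShC-S with ShLy75-S. The tile from 99531001 to 99532000 on chromosome 10, with 117 CpGs and the fragment shown above, differed by -72.7 points (q = 1.40e-136) and by -37.2 points in the mix, and the next tile into the gene by -47.5 points. SFRP2, of the same family, changed direction along its promoter. It differed by -33.9 points downstream of the TSS and by 66.4 points (q = 7.36e-218) in the tile from 154712001 to 154713000 on chromosome 4, upstream of it. DKK3, a divergent Dickkopf protein, differed in ShC-S with ShLy75-S by -54.8 points over its TSS (111 CpGs). In the same comparison 6 tiles within the gene were hypermethylated by 31.1 to 100 points. In Ly75-OV-S with Ly75-KO-S tiles within DKK3 differed by 39.2, -46.2 and -32.3 points, the last in a tile at 100 points in ShC-S with ShLy75-S. Another hypomethylated promoter in ShC-S with ShLy75-S was that of DKK1, the prototype inhibitor of LRP5 and LRP6, with -43.4 points. DKK2, of the same family, had -33.0 and -33.3 points in neighbouring promoter tiles in that comparison. FRZB, a relative of the SFRP proteins, was hypermethylated at its promoter, by 51.5 points in ShC-S with ShLy75-S and, in the mix, by 31.5 points. WIF1, a secreted protein that binds WNT ligands, had 36.6 points upstream of its TSS in ShC-S with ShLy75-S and -55.6 points downstream of it in Ly75-OV-S with Ly75-KO-S, in different tiles.
SFRP1, on chromosome 8, was the antagonist with most tiles in Ly75-OV-S with Ly75-KO-S, 6 in all. Its promoter tile there differed by 39.2 points, and gene body tiles by -29.7 to 100 points. A flank tile centred at -4508 bp from the TSS was hypomethylated throughout, by -29.8, -44.8 and, in the mix, -39.0 points. SFRP4 had 1 tile, at 35.8 points in Ly75-OV-S with Ly75-KO-S. It lies inside the annotated gene span but far upstream, centred at -86081 bp from the TSS counted here.

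The single comparisons share no library, but Ly75-OV-S was made from the LY75 knockdown cells, so they are not independent. Between them, 13 tiles at the Wnt genes were listed in both. They made up 10.4% of the 125 tiles of ShC-S with ShLy75-S and 20.3% of the 64 of Ly75-OV-S with Ly75-KO-S. For the whole genome these shares were 16.3% and 29.5%. Of the 13 tiles, 5 had the same direction (38.5%, interval 17.7% to 64.5%), 4 hypermethylated in WNT3, WNT7B, LRP5 and WLS and 1 hypomethylated next to SFRP1. In the other 8, at WNT4, WNT3A, WNT5A, WNT9A, ROR2, WLS, FZD8 and DKK3, the directions were opposite. Over the genome 52.6% of the shared tiles had the same direction, a share that the interval of the Wnt genes holds. With the sign of Ly75-OV-S with Ly75-KO-S reversed, the 8 opposed tiles of the 13 would have the same direction (61.5%) and the other 5 opposite directions. Over the genome 47.4% would then have the same direction. The 5 tiles with the same direction differed by 25.9 to 53.0 points, without regard to sign, in Ly75-OV-S with Ly75-KO-S.

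**Figure D5:**
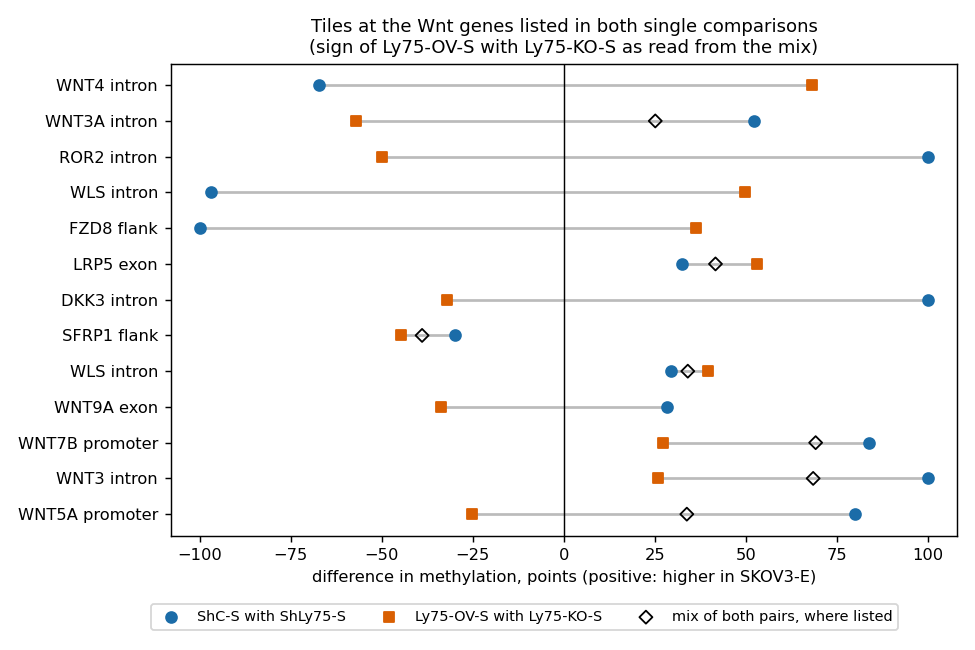
Differences in methylation (x axis, points, positive for higher in the E clone) of the 13 tiles at Wnt genes listed in both single comparisons, 1 tile per line, ordered by the smaller absolute difference. Circles show ShC-S with ShLy75-S, squares Ly75-OV-S with Ly75-KO-S, whose sign rests on the mix, and open diamonds the mix where listed, and in 8 lines the circle and the square lie on opposite sides of 0.

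Neighbouring listed tiles at the Wnt genes had the same direction in 18 of 20 adjacent pairs in ShC-S with ShLy75-S (90.0%, 69.9% to 97.2%) and in 2 of 6 in Ly75-OV-S with Ly75-KO-S. At all protein-coding genes these shares were 82.9% and 54.0%. A difference of 100 points was listed for 10 of the 125 Wnt tiles in ShC-S with ShLy75-S (8%, against 13.1% in the genome), 9 of the 64 in Ly75-OV-S with Ly75-KO-S (14.1%, against 9.37%) and none in the mix. The median absolute difference at the Wnt genes was 49.8, 44.03 and 34.0 points in the 3 comparisons, beside 50.0, 41.9 and 36.9 points over all listed tiles. The largest q-value of a listed Wnt tile was 0.00278.

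Other genes of the pathway were read in the same way. Among 20 other genes that act outside the cell or at its surface, such as the R-spondins and their LGR receptors, 12 had a listed promoter tile in ShC-S with ShLy75-S and 2 in Ly75-OV-S with Ly75-KO-S, beside 30.1% and 14.2% of all protein-coding genes. Their tiles were hypermethylated in 46 of 63 cases in ShC-S with ShLy75-S (73.0%) and in 6 of 19 in Ly75-OV-S with Ly75-KO-S (31.6%, interval 15.4% to 54.0%), beside 64.7% and 54.7% in the genome. With the sign turned the shares of Ly75-OV-S with Ly75-KO-S would be 68.4% in this list and 45.3% in the genome. Among 19 intracellular genes, from the Dishevelled proteins to the TCF factors, 7 and 1 had a listed promoter tile, and 42 of 61 (68.9%) and 14 of 30 tiles (46.7%, interval 30.2% to 63.9%, or 53.3% with the sign turned) were hypermethylated. The shares in Ly75-OV-S with Ly75-KO-S depend on its sign, so no ranking of these lists and the Wnt genes is made from them.
At LY75 itself, on chromosome 2 from 160659866 to 160761267, 2 promoter tiles were hypermethylated in ShC-S with ShLy75-S. They differed by 87.7 points in the tile that holds a TSS and by 70.5 points in the next tile downstream. The mix gave 42.9 and 30.7 points there. An exonic tile differed by -28.5 points in ShC-S with ShLy75-S. No promoter tile of LY75 was listed in Ly75-OV-S with Ly75-KO-S, and an intronic tile differed by -100 points. Methylation does not check the knockdown, the knockout or the re-expression of LY75.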

How the data were processed

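The submitters digested genomic DNA of 4 SKOV3 clones with MspI and sequenced bisulfite-treated fragments as single reads of 50 bp. Their processing notes name FastQC, Trim Galore 0.4.1, Bismark 0.16.1 and methylKit on hg19, while the extraction protocol names another trimming program. The authors deposited, for each of 3 comparisons, the tiles of 1000 bp past their thresholds, with the difference in percent methylation and the p-value and q-value between libraries. These comparison columns are the authors' own results and were used as such, since the tables hold no values per library. No test between conditions was made, and read depth is unknown.

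Gene spans and TSSs came from GENCODE release 44 in its GRCh37 version, the same build as hg19. A tile belonged to a gene if it overlapped the gene's span extended by 5 kb, and was classed as promoter (2 kb either side of a TSS of a basic transcript), exon, intron or flank in this order. Intron stands for the rest of the annotated gene span, which can reach upstream of the TSSs counted. As the tested tiles are unknown, tiles with at least 1 CpG within 50 bp of an end of an MspI fragment of 40 to 220 bp stood in for them. They included 93.0%, 90.1% and 94.1% of the listed tiles in ShC-S with ShLy75-S, Ly75-OV-S with Ly75-KO-S and the mix. Shares have 95% Wilson intervals. Sequences were read from the GRCh37 genome, leaving out untranslated regions. Python 3.11.15, numpy 2.4.6 and matplotlib 3.10.9 were used, and the counting was tested on simulated data.

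The genes named were WNT3, members with the same promoter tile in both single comparisons, the 3 with the largest promoter difference per role and single comparison, the 6 with the largest smaller difference in a shared tile outside promoters, and the 3 with most listed tiles, of which the last place was tied. Values of other members were chosen after they were seen, so that every member is accounted for. The members and lists were chosen with earlier results of these data known. Alternatives varied the smallest difference, the q-value, tiles at 100 points, the extension, tiles over other genes, the promoter, the TSSs and the reachable fragments.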

Additional observations from a re-analysis of the deposited data

How the results depend on the processing

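No paired analysis was possible because the tables hold no values per library and no test was made. Of 98 values under an alternative setting, 75 stayed within 1.5 times the main count or inside the main interval. With differences of at least 40 points, listed tiles fell to 78 in ShC-S with ShLy75-S, 37 in Ly75-OV-S with Ly75-KO-S and 13 in the mix, the listed share of reachable tiles to 9.99%, 4.64% and 1.69%, genes with a listed promoter tile to 14, 3 and 2, and tiles in both single comparisons to 4. At 50 points these values were 62, 24 and 7 tiles, 7.88%, 3.09% and 0.844%, 10, 2 and 1 genes, and 3 shared tiles, as a higher threshold must lower each of them. The hypermethylated share of the mix was 84.6% at 40 points. All 4 shared tiles at 40 points had opposite directions, and with the sign of Ly75-OV-S with Ly75-KO-S turned all 4 would have the same direction. With promoters of 5 kb either side, 12 genes had one in Ly75-OV-S with Ly75-KO-S. Reading the signs of that comparison by the order of names, chosen after the data were seen, made 34.4% of its tiles hypermethylated, beside 45.3% over the genome. Unknown depth limits every difference.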
